A study of Mus musculus with 42 samples.

Results

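The irradiation response of mouse thymus carrying the p53 allele named AD was described across all genes. The members were the 7 thymus libraries of that genotype among 42 libraries in the series. Of these, 4 came from irradiated mice (AD-630, AD-633, AD-726 and AD-727, named by genotype and animal number), whose organs were taken 4 h after exposure, and 3 came from basal mice that were not irradiated (AD-700, AD-701 and AD-702). The AD mice held 1 AD allele over a null allele (p53 AD/-), so none of the 7 had a wild-type copy of the gene. Thymus of mice without p53 (p53-null, called Null, 4 irradiated and 2 basal) and of mice with 1 wild-type allele (p53 +/-, called Het, 4 irradiated and 3 basal) served for comparison. Irradiated thymus with the allele RP over a null allele (p53 RP/-, 4 mice) entered only the estimate of spread and 1 descriptive comparison. All mice were 4 weeks old, carried their p53 alteration in the germline, and shared a mixed BALB/C and C57BL6 background. Sex, radiation dose, cage and preparation date were not in the labels.

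The p53 protein is a transcription factor that works as a tetramer, and the series title concerns forms of it that stop at the dimer. After DNA breaks it is stabilised and switches on genes for cell cycle arrest, DNA repair and cell death, and thymocytes, the developing T cells that make up most of the thymus, are among the cells that die most readily by this route. Damaged cells also respond without p53: the ATM and ATR kinases halt replication and hold cells before mitosis, and histone messages, which are made while DNA is being copied, are degraded when replication is blocked.

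Libraries held 30310655 to 31817152 counts in the basal and 27823465 to 33331829 in the irradiated AD group. Trp53, the altered gene (chromosome 11, 69580359 to 69591873, GRCm38), was read first and stood at 38.0, 33.9 and 30.5 CPM (counts scaled to library size) in basal AD-700, AD-701 and AD-702. It stood at 32.7, 34.6, 38.4 and 35.0 CPM in irradiated AD-630, AD-633, AD-726 and AD-727. The groups overlapped, with a log2 fold change of 0.04 ± 0.08 (SE) and an edgeR adjusted p of 0.849, and a transcript level does not tell an AD allele from another. The thymocyte genes Cd4, Cd8a, Cd8b1 and Rag1 had mean levels of 9.58, 10.18, 9.57 and 12.05 log2 CPM in the AD libraries. By Xist and the Y-linked Ddx3y, AD-702, AD-630 and AD-633 read as female and the other 4 as male, so 1 of 3 basal and 2 of 4 irradiated mice were female by this reading. Sex was less clear in Het thymus. Het-595 held both Xist (1139 CPM) and Ddx3y (196 CPM), and the sex term used below took it as female. Het-855 and Het-631 held Xist at 164 and 131 CPM beside Ddx3y at 193 and 150 CPM. The reason was not tested. Each library carries its own animal number. The p-values below measure only the spread among mice, estimated over all 24 thymus libraries rather than the 7 AD libraries alone.

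Few genes passed the threshold in AD thymus, and most of the large changes among them were falls of histone messages. By edgeR's quasi-likelihood test, at a Benjamini-Hochberg adjusted p under 0.05 (a gene past this is called here), 39 of 23605 genes rose (0.165%) and 90 fell (0.381%). Of the 90 that fell, 50 were histone genes of the 4 histone clusters, and the other 40 were 25 protein-coding genes, 5 snRNA genes, 3 snoRNA genes and 7 pseudogenes or identifiers that the annotation did not hold. At least a 2-fold change was reached by 45 of the genes that fell, 37 of them clustered histones, and by 3 that rose. Of the 39 that rose, 37 were protein-coding. Without adjustment 2880 genes (12.2%) had an edgeR p under 0.05, so a gene without a call may still have changed. The number rests on single libraries in part: without AD-701 only 2 genes rose, without AD-630 67 genes were called in all, and DESeq2 on the same libraries called 319.

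**Figure D1:**
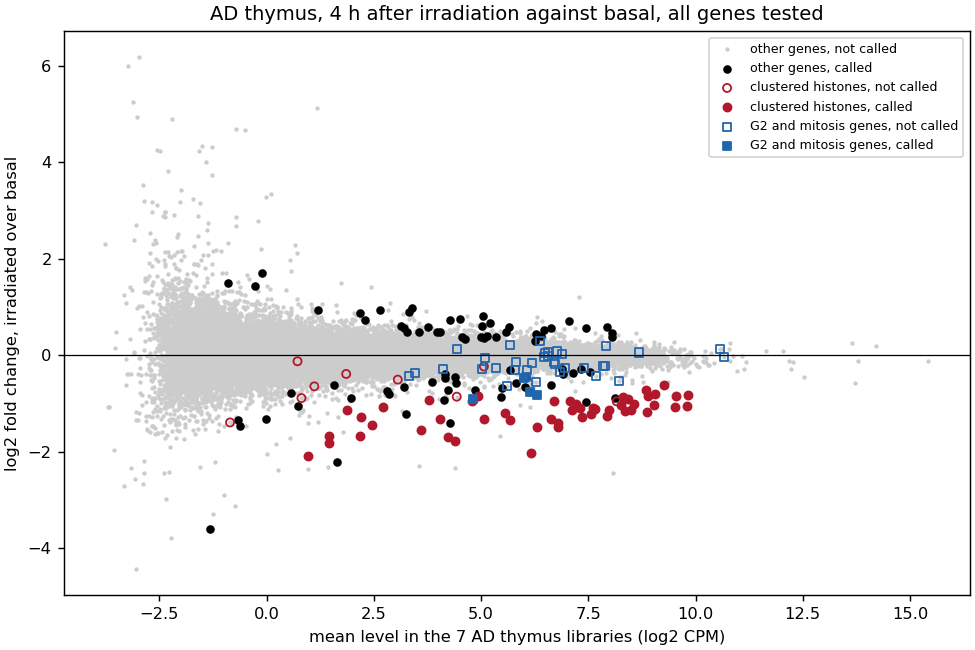
Log2 fold change (irradiated over basal AD thymus, vertical axis) against mean level in log2 CPM (horizontal axis), each point 1 of 23605 genes. Clustered histones (red) lie below 0 over the whole range of levels, filled where called, and the 4 called G2 and mitosis genes (filled blue squares) lie between -0.47 and -0.90.

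Replication-dependent histones package newly copied DNA, and their messages carry no poly(A) tail. Such a message ends in a stem-loop, which the stem-loop binding protein holds for processing, translation and decay. The motif GGNNCTTTTNAGNNCC, written as DNA and searched on the sense strand only, stood in GENCODE M21 transcripts (GRCm38) of 38 of the 59 clustered histone genes tested and of 33 of 23473 other genes tested (0.141%). The best-expressed called histone of each class that holds the motif is shown with the stem-loop in capitals and the flanking bases in lower case, since this element is what these members have in common.
Hist1h1d (H1): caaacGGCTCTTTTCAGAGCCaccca
Hist1h2ab (H2A): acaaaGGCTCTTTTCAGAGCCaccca
Hist1h2bb (H2B): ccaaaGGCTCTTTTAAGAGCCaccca
Hist1h3b (H3): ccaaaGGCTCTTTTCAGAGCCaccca
Hist1h4d (H4): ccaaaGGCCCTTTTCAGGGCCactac
All 5 lie in the histone cluster of chromosome 13 on the plus strand, at chr13:23555782-23555807, chr13:23751567-23751592, chr13:23747198-23747223, chr13:23752815-23752840 and chr13:23581945-23581970 in the order shown, each in the part of the transcript after the coding sequence. The motif ended 4884, 11, 23, 51 and 770 bases before the end of the annotated transcript, in the same order. The annotated transcripts of Hist1h1d and Hist1h4d thus run on well past it. Of the 38 genes with the motif 33 fell, with a median log2 fold change of -1.07, and of the 21 without it in their annotated transcript 17 fell, with a median of -1.13. A missing match says only that these letters are not in the annotated transcript.

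Hist1h1d, a linker histone that sits where DNA enters the nucleosome, stood at 1382, 1162 and 1542 CPM in basal AD-700, AD-701 and AD-702. In irradiated AD-630, AD-633, AD-726 and AD-727 it stood at 603.7, 567, 692 and 755 CPM. All 4 irradiated libraries lay below all 3 basal ones, and the log2 fold change was -1.06 ± 0.12 with an edgeR adjusted p of 4.144e-05. The core histone Hist1h4d went from 1020, 898 and 1250 CPM to 461, 522, 626 and 739 CPM, without overlap (-0.85 ± 0.15, adjusted p 0.00771). Hist1h3b went from 624, 542 and 692 CPM to 333, 338, 376 and 447 CPM (-0.73 ± 0.12, adjusted p 0.00264). Hist1h2bb fell by 0.80 ± 0.11 on the log2 scale (adjusted p 0.000437), from 691, 621 and 886 CPM to 382, 394, 420 and 482 CPM. These 4 abundant histones, of 4 classes, all lay lowest in AD-630 or AD-633 and highest among irradiated libraries in AD-727. Lower-level H2A genes had the larger fold changes: Hist1h2ab stood at 37.7, 29.2 and 47.9 CPM in basal and at 5.90, 9.73, 16.1 and 15.5 CPM in irradiated libraries (-1.69 ± 0.32, adjusted p 0.0147), and it lost its call without AD-702 or AD-633, with the 2 AD groups alone and with summed snRNA as a covariate. Hist1h2ae fell by 1.55 ± 0.18 on the log2 scale, from a mean of 22.4 CPM (SD 3.01, n = 3) to 7.64 CPM (SD 1.48, n = 4) (edgeR adjusted p 5.989e-05). Hist1h4n had one of the largest falls, from 162, 155 and 171 CPM to 27.8, 32.9, 43.5 and 56.8 CPM (-2.01 ± 0.28, adjusted p 0.000946).

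Of 54 tested genes in the list of replication-dependent histones, 47 fell and 0 rose, the median log2 fold change was -1.12 against 0.01 over all genes, and in 51 the libraries did not overlap, as in 6.97% of all genes tested. The 7 that were not called also had estimates below 0, Hist2h2ab lying nearest to 0 (-0.39 ± 0.17). In the wider family of 59 genes the estimates nearest to 0 were -0.12 for the testis gene Hist1h1t, at a mean of 0.72 log2 CPM, and -0.23 for Hist2h2be. Hist2h2be stood at 41.5, 34.3 and 34.8 CPM in basal and 36.9, 28.3, 28.9 and 31.4 CPM in irradiated libraries (adjusted p 0.335). Hist1h4a (-0.96 ± 0.22, adjusted p 0.0533) narrowly missed the threshold. With the 2 AD groups alone in the fit, 28 of the 54 were called rather than 47, and without AD-702 the number was 38. Copies within a class are nearly identical and the counting of shared reads was not given in the sources used here, so values of single copies are uncertain and the sum over the family is the firmer measure.

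Summed over the 59 genes, clustered histones took 16780, 14760 and 20160 CPM in basal AD-700, AD-701 and AD-702 and 7407, 7561, 9110 and 10470 CPM in irradiated AD-630, AD-633, AD-726 and AD-727. The basal mean (17230 CPM, SD 2730, n = 3) was 1.99 times the irradiated mean (8636 CPM, SD 1442, n = 4). By class the ratio of basal to irradiated means was 1.86 for H1, 2.68 for H2A, 1.97 for H2B, 2.06 for H3 and 2.09 for H4. The same sum gave ratios of 1.78 in Null and 1.95 in Het thymus, each from its own mice. Irradiated RP thymus, for which no basal libraries were analysed here, held 11070 to 13340 CPM, above the 7407 to 10470 CPM of irradiated AD thymus and below all 3 basal AD libraries, a difference between genotypes that was not tested.

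**Figure D2:**
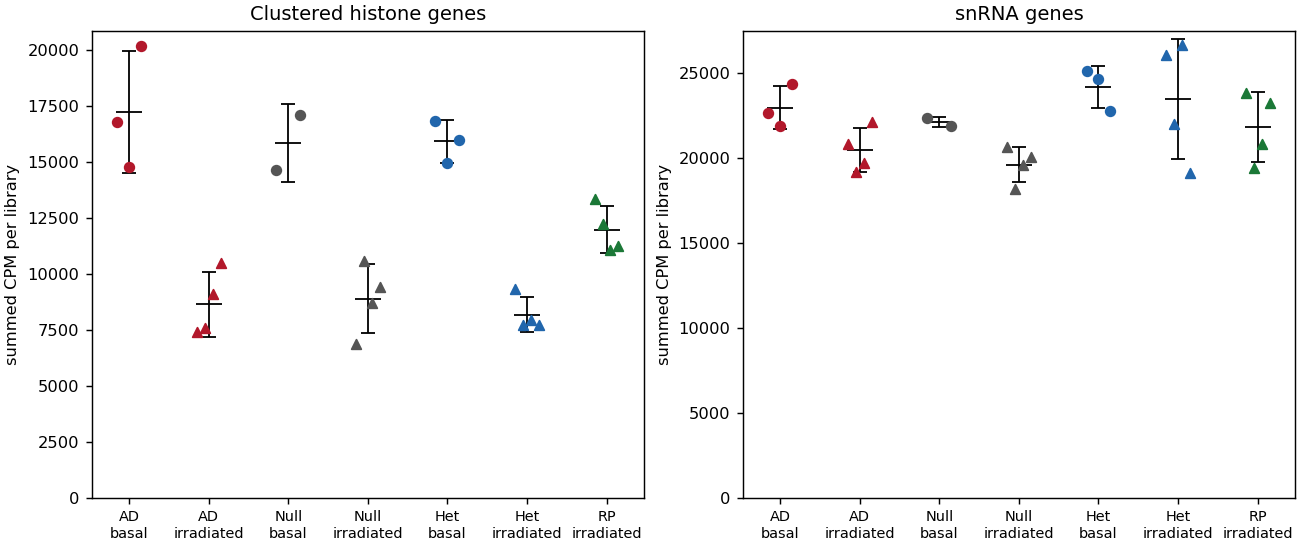
Summed CPM per library of the 59 clustered histone genes (left) and of all snRNA genes counted, tested or not (right), in the 7 thymus groups. Circles stand for basal and triangles for irradiated libraries, with the group mean and SD in black. Basal histone sums lie between 14620 and 20160 CPM and irradiated sums between 6874 and 13340 CPM, whereas the snRNA sums of the groups lie close together.

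Other RNAs without a poly(A) tail moved less. The ratio of basal to irradiated AD means was 1.12 for summed snRNA, 1.11 for snoRNA and 1.04 for scaRNA, against 1.99 for histones. For summed rRNA, with mitochondrial rRNA included, the ratio was 0.89. Of 269 snRNA genes 5 fell (1.859%) and 0 rose (median 0.09), and of 243 snoRNA genes 3 fell (1.235%) and 0 rose (median -0.08). Over all genes 0.381% fell. Libraries did not overlap in the lower direction for 23 snRNA and 42 snoRNA genes, beside 6.97% of all genes. With summed snRNA as a covariate, an alternative chosen after seeing the data, 42 of the 54 listed histones were called lower and the list median was -1.05. Labels give no preparation batch, and any difference in preparation between irradiated and basal libraries cannot be told apart from irradiation. Histones made outside S phase and with a poly(A) tail, in a list written after the histone result was seen, had a median of -0.15 with 1 of 11 called. That gene was H2afx, whose protein is phosphorylated around DNA breaks and whose gene gives both kinds of message. It stood at 130, 105 and 148 CPM in basal and 71.9, 82.3, 90.1 and 90.1 CPM in irradiated libraries (-0.61 ± 0.13, adjusted p 0.0273). It lost its call without AD-700, AD-702, AD-630 or AD-633, with the 2 AD groups alone and without the expression filter. Of 12 genes for histone message processing, chosen in the same way, 0 were called by edgeR with 5 at an unadjusted p under 0.05 (12.2% over all genes), and Slbp, the stem-loop binding protein, stood at 125, 116 and 140 CPM in basal and 155, 131, 142 and 145 CPM in irradiated libraries.

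A few genes of late G2 and mitosis fell after irradiation, 4 of 39 listed (10.26%, beside 0.381% of all genes). Ccnb1, the cyclin that drives entry into mitosis, stood at 102, 80.3 and 108 CPM in basal AD-700, AD-701 and AD-702. It stood at 53.6, 59.1, 55.5 and 58.8 CPM in the irradiated libraries. The irradiated values were close together and all below the lowest basal value (-0.77 ± 0.15, edgeR adjusted p 0.0131). Cdc20, which activates the complex that starts anaphase, went from 105, 95.1 and 131 CPM to 51.3, 67.3, 63.2 and 68.4 CPM (-0.82 ± 0.17, adjusted p 0.0305). The helicase Pif1 went from 38.2, 37.2 and 44.9 CPM to 17.4, 26.2, 20.5 and 22 CPM (-0.90 ± 0.19, adjusted p 0.0356). The centrosome kinase Nek2 fell by 0.47 ± 0.10 on the log2 scale (adjusted p 0.0271). In these 4 genes the groups did not overlap. Cenpf, a kinetochore protein (-0.54 ± 0.12, adjusted p 0.0503), Ccnb2 (-0.56 ± 0.14, adjusted p 0.0756) and the ubiquitin enzyme Ube2c (-0.63 ± 0.15, adjusted p 0.0756) also did not overlap but missed the threshold. Of the 39 listed genes 0 rose, 29 had estimates below 0 and 10 above, and the median was -0.22. Libraries did not overlap in the lower direction for 18 of them, against 6.97% of all genes. The Plk1 and Aurka kinases of the same list had estimates of -0.27 ± 0.14 and -0.31 ± 0.16. The 4 calls rest on few mice: without AD-700, AD-702 or AD-630 none of the list was called, and with the 2 AD groups alone 10 were called. Cdc20 and Nek2 also lost their calls without AD-633 or AD-726, and Pif1 without AD-701, AD-726 or AD-727. Without the expression filter Cdc20 and Pif1 lost theirs, and with Adipoq as a covariate Nek2 did.

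Of 50 listed DNA replication genes 1 rose and 1 fell, and the list median was 0.14. Ung, the glycosylase that removes uracil from DNA, stood at 15.8, 13.6 and 16.9 CPM in basal AD-700, AD-701 and AD-702. It stood at 8.12, 5.19, 7.67 and 5.63 CPM in irradiated AD-630, AD-633, AD-726 and AD-727. Every irradiated library lay well below the lowest basal one (-1.22 ± 0.17, edgeR adjusted p 0.000338), and the call held under all 15 alternatives. Rrm2, the small subunit of the ribonucleotide reductase that supplies DNA precursors, rose from 223, 195 and 246 CPM to 331, 273, 313 and 304 CPM (0.46 ± 0.10, adjusted p 0.0207), and it lost its call without AD-700, AD-701, AD-630 or AD-726 and with the snRNA covariate. The S phase cyclins Ccne1 (0.45 ± 0.14, adjusted p 0.191) and Ccne2 (0.50 ± 0.15, adjusted p 0.188) and thymidylate synthase Tyms (0.37 ± 0.12, adjusted p 0.21) had higher levels in every irradiated than in any basal library without a call. The replicative helicase subunit Mcm2 had an estimate of -0.31 ± 0.09 (adjusted p 0.129). In all, 35 of the 50 replication genes had estimates above 0, as did 12167 of all 23605 genes. Among 38 genes of damage signalling and double-strand break repair, H2afx alone was called, and 14 others had irradiated libraries above all basal ones, as had 7.82% of all genes. They included Brca1, at 100, 92.1 and 102 CPM in basal and 167, 132, 134 and 141 CPM in irradiated libraries (0.55 ± 0.13, adjusted p 0.0585), and Brca2 (0.57 ± 0.17, adjusted p 0.191).

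The genes that rose did so by less than 2-fold where they were well expressed. E2f7, a repressor of E2F target genes, stood at 21.8, 25.7 and 24.6 CPM in basal AD-700, AD-701 and AD-702. It stood at 47.4, 42.0, 41.4 and 38.8 CPM in the irradiated libraries (0.82 ± 0.18, edgeR adjusted p 0.0337). Mybl1, a MYB family transcription factor, rose from 16.8, 17.1 and 17.2 CPM to 35.9, 29.0, 26.5 and 23.9 CPM (0.76 ± 0.12, adjusted p 0.00127). Basal values of Mybl1 were nearly equal and all 4 irradiated ones lay above them, and the call held under all 15 alternatives. Other rises with roles in DNA upkeep were Uvssa, of transcription-coupled repair (0.58 ± 0.10, adjusted p 0.00402), the fork-remodelling translocase Zranb3 (0.60 ± 0.14) and the cohesin acetyltransferase Esco2 (0.57 ± 0.11). Polr2a, the largest subunit of RNA polymerase II, stood at 146, 141 and 131 CPM in basal and 190, 228, 235 and 172 CPM in irradiated libraries (0.56 ± 0.12, adjusted p 0.0356). Tubulin genes went both ways: Tuba1b rose from 193, 180 and 217 CPM to 297, 270, 291 and 314 CPM (0.58 ± 0.13, adjusted p 0.0367). Its close relative Tuba1c, chosen after its value was seen, fell from 61.7, 56.1 and 67.1 CPM to 31.8, 36.1, 34.4 and 33.9 CPM (-0.86 ± 0.15, adjusted p 0.00387). The nuclear envelope protein Syne2 (0.70 ± 0.15), the calcium-gated channel Trpm4 (0.62 ± 0.14), the lysosomal disease gene Cln6 (0.59 ± 0.13), the sodium-proton exchanger Slc9a5 (0.90 ± 0.21), Lonrf3 (0.94 ± 0.18), the phosphatase inhibitor Ppp1r1b (0.93 ± 0.19), the protocadherin Pcdhgc4 (0.74 ± 0.15) and the long non-coding RNA Eldr (0.99 ± 0.20) completed the 15 largest rises above a floor of 1 log2 CPM. Of these 15, Mybl1 alone kept its call under every alternative, and Uvssa lost it only without AD-701. Slc9a5, Syne2, Trpm4, Zranb3, Cln6 and Tuba1b lost their calls without any 1 of the 7 libraries, and E2f7 and Polr2a without any but AD-727. Eldr and Pcdhgc4 lost theirs without AD-701, AD-702, AD-630 or AD-633, Esco2 without AD-701, AD-702 or AD-630, Lonrf3 without AD-700, AD-702 or AD-726, and Ppp1r1b without AD-700, AD-701 or AD-726. With the snRNA covariate all 15 but Mybl1, Uvssa, Lonrf3 and Ppp1r1b lost their calls. Without the expression filter Slc9a5, E2f7, Syne2, Zranb3, Tuba1b and Polr2a lost theirs, and with Adipoq as a covariate Tuba1b did.

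**Figure D3:**
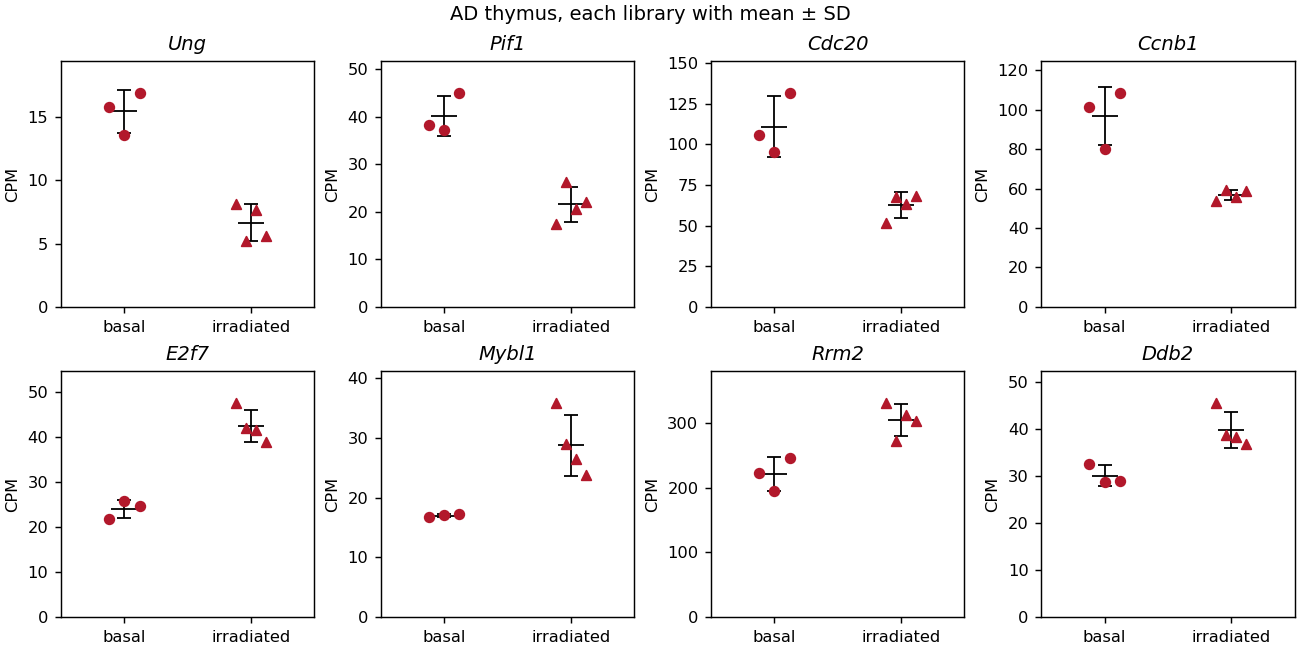
CPM of 8 called genes in each AD thymus library (circles basal, triangles irradiated), with the mean and SD in black and axes from 0. Irradiated libraries lie below basal ones for Ung, Pif1, Cdc20 and Ccnb1 and above them for E2f7, Mybl1, Rrm2 and Ddb2, with no overlap in any of the 8.

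Outside the histones and the lists, genes that fell were varied, and those named here were chosen after their values were seen. The centrosome gene Cep89 went from 24.1, 24.8 and 26.8 CPM to 12.3, 14.2, 13.4 and 13.1 CPM (-0.93 ± 0.13, edgeR adjusted p 0.000215). The nuclear import receptor Kpna2 went from 79.7, 79.2 and 96.7 CPM to 47.6, 55.8, 55.0 and 58.2 CPM (-0.65 ± 0.11, adjusted p 0.00269). The membrane protein Emp1 went from 43.6, 30.2 and 41.9 CPM to 25.8, 26.2, 21.7 and 20.1 CPM (-0.72 ± 0.15, adjusted p 0.0208). All 3 were lower in each irradiated library than in any basal one. Emp1 lost its call without AD-700, AD-702, AD-726 or AD-727 and without the expression filter. The class I pseudogene H2-T-ps, named by rule, behaved unevenly: basal AD-700 and AD-701 held 42.9 and 47.0 CPM and basal AD-702 held 15.9 CPM, close to the 11.9, 14.5, 13.7 and 13.0 CPM of the irradiated libraries. Its log2 fold change was -1.41 ± 0.23 (adjusted p 0.00252) in AD, -0.03 ± 0.27 in Null and 1.61 ± 0.24 in Het thymus, and it was not called with the 2 AD groups alone.

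Among the listed targets of wild-type p53, 1 was called in AD thymus. Cdkn1a, the cell cycle inhibitor that p53 induces most plainly, stood at 3.11, 4.42 and 3.70 CPM in basal AD-700, AD-701 and AD-702 and at 3.45, 4.31, 4.83 and 4.88 CPM in irradiated AD-630, AD-633, AD-726 and AD-727. The groups overlapped (0.22 ± 0.13, edgeR adjusted p 0.506). The death gene Bbc3 (PUMA) stood at 5.20, 6.83 and 6.15 CPM in basal and 3.52, 6.58, 6.97 and 7.03 CPM in irradiated libraries (-0.01 ± 0.18, adjusted p 0.99). Bax went from 13.0, 11.9 and 12.4 CPM to 11.9, 11.8, 11.7 and 11.5 CPM (-0.09 ± 0.09, adjusted p 0.732). Mdm2, the ligase that degrades p53, stood at 139, 150 and 160 CPM in basal and 145, 141, 143 and 143 CPM in irradiated libraries (-0.06 ± 0.06, adjusted p 0.682). None of the remaining panel genes was called: Ccng1 (-0.06 ± 0.08), Phlda3 (-0.30 ± 0.18), Pmaip1 (-0.12 ± 0.12), Fas (-0.18 ± 0.10), Plk2 (-0.27 ± 0.13), Gdf15 (0.01 ± 0.45) and Eda2r (-0.93 ± 0.31, adjusted p 0.221). Gdf15 and Eda2r stood under 1 CPM in all 7 libraries. In the lists, 1 of 30 arrest and repair targets (median -0.03), 0 of 24 apoptosis targets (median -0.08) and 0 of 21 metabolism targets (median 0.00) were called by edgeR. At an unadjusted p under 0.05, passed by 12.2% of all genes, there were 2, 9 and 4, of which 6 of the 9 had estimates below 0. DESeq2 called 3 of all listed targets (Ddb2, Apaf1 at an adjusted p of 0.0423, and Ckap2, which was lower). With the 2 AD groups alone 4 were called (Ddb2, Pidd1, Tsc2 and, lower, Ckap2), and without AD-701, AD-702 or AD-630, or with the snRNA covariate, none was.

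The called target was Ddb2, which recognises ultraviolet lesions. It stood at 32.5, 28.7 and 28.8 CPM in basal and 45.4, 38.7, 38.2 and 36.8 CPM in irradiated libraries, without overlap. Its log2 fold change was 0.41 ± 0.08 (edgeR adjusted p 0.0179), set beside 0.24 ± 0.09 in Null and 0.48 ± 0.08 in Het thymus. No difference in its response was called between AD and Het. The apoptosome gene Apaf1, at 90.3, 84.5 and 93.0 CPM in basal and 107, 103, 101 and 101 CPM in irradiated libraries, did not overlap but was not called (0.20 ± 0.06, adjusted p 0.118). The PIDDosome gene Pidd1 was similar, with 0.46 ± 0.15 (adjusted p 0.202).

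Against mice with 1 wild-type allele the difference in response was large for these targets, by the interaction of genotype and irradiation in the same fit. The AD response minus the Het response was -2.83 ± 0.18 for Cdkn1a, -3.83 ± 0.25 for Bbc3, -2.58 ± 0.13 for Bax, -2.68 ± 0.11 for Ccng1, -4.43 ± 0.19 for Plk2 and -0.77 ± 0.08 for Mdm2 on the log2 scale, all called by edgeR. Over all genes 246 (1.04%) had a higher and 694 (2.94%) a lower response in AD than in Het. Of the listed targets a lower response was called for 19 of 30 in arrest and repair, 16 of 24 in apoptosis (1 was higher) and 7 of 21 in metabolism. 14 of 30 immediate early genes, 10 of 30 NF-kB targets and 9 of 25 glucocorticoid targets were lower by the same test, whereas 13 of 26 MYC targets of growth and 10 of 36 ribosome biogenesis genes were higher (1 of each of the immediate early and ribosome lists went the other way). Myc itself, a driver of those genes, stood at 43.3, 37.7 and 43.1 CPM in basal and 38.5, 34.4, 42.6 and 41.0 CPM in irradiated AD thymus (-0.08 ± 0.17), and its response was higher by 1.05 than in Het. Without the library Het-703, 611 genes were called in all, and without Het-631, 1584.

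Against mice without p53 no difference in response was called by edgeR for any of the 23605 genes (0%), with 972 at an unadjusted p under 0.05. DESeq2 called 2, the pseudogene Gm14150 (-2.80) and the X-linked Chic1 (2.28), and with only the 4 groups concerned edgeR called Gm14150 alone (-2.79). Gm14150 stood at 7.18, 7.36 and 7.71 CPM in basal and 1.41, 1.27, 1.82 and 1.89 CPM in irradiated AD libraries. Without AD-702 the class I genes H2-T-ps (-1.73) and H2-T10 (-1.84) were called. For Cdkn1a the AD response minus the Null response was 0.01 ± 0.20, for Bax 0.04 ± 0.14 and for Mdm2 0.06 ± 0.09. Other panel genes lay farther from 0 without a call. Plk2 differed by -0.68 ± 0.20 (-0.27 in AD and 0.41 in Null), Eda2r by -0.83 ± 0.45 and Phlda3 by -0.51 ± 0.27. Gdf15 differed by 0.53 ± 0.68, Pmaip1 by -0.29 ± 0.19, Trp53 by 0.16 ± 0.12 and Ccng1 by -0.12 ± 0.12. Fas (0.04 ± 0.16) and Bbc3 (-0.01 ± 0.28) lay near 0. With 2 basal Null mice, differences of the size of these errors could not be told from 0, and the absence of a call does not show that AD and Null thymus respond alike.

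**Figure D4:**
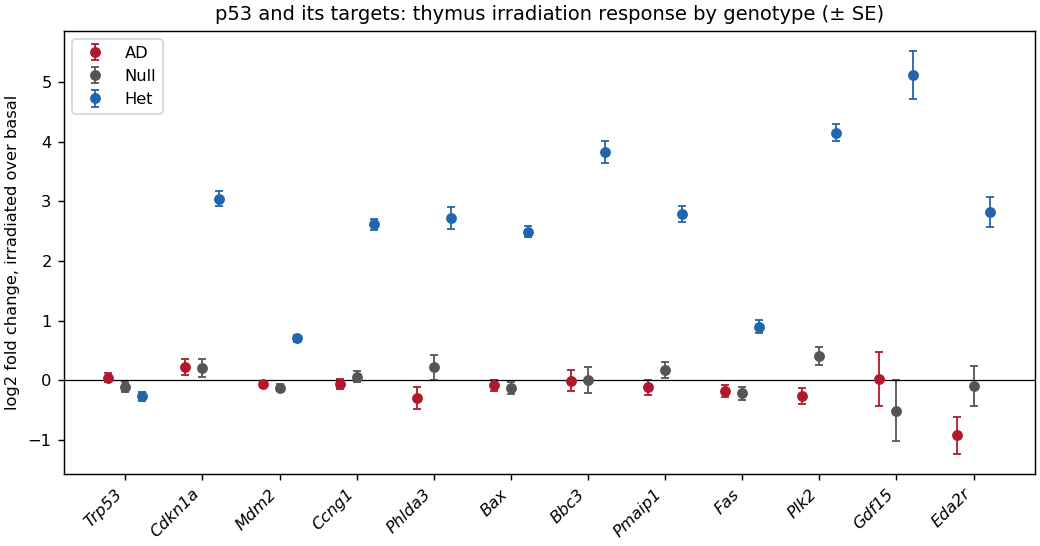
Log2 fold change (irradiated over basal thymus, ± SE) of Trp53 and 11 of its targets in AD (red), Null (grey) and Het (blue) mice. AD and Null values run from -0.93 (Eda2r in AD) to 0.41 (Plk2 in Null, against -0.27 in AD). Het values of the targets run from 0.70 for Mdm2 to 5.12 for Gdf15.

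The genes called in AD moved in the same direction in the other genotypes in most cases, each genotype being read from its own mice. Of the 90 genes that fell in AD, 85 had an estimate below 0 in Null and 88 in Het thymus. The 90 include 50 clustered histones. Of the 40 others, 35 were below 0 in Null and 38 in Het thymus. Their medians were -0.72 in AD, -0.36 in Null and -0.43 in Het thymus. These genes were picked by their call in AD, which can enlarge the AD median alone, so the medians do not compare the strength of the responses. Of the 39 that rose, 39 and 38 were above 0. Over 14770 genes whose mean level reached 1 log2 CPM the shares with the same sign were 63.3% and 63.0%. Ung had log2 fold changes of -1.22 in AD, -1.30 in Null and -2.30 in Het thymus, and its response in AD and Het differed by 1.08 (edgeR adjusted p 0.0117). Ccnb1 stood at -0.77, -0.71 and -1.44, Cdc20 at -0.82, -0.77 and -0.73, and E2f7 at 0.82, 0.68 and 1.08 in the same order. Medians of the histone list were -1.12, -0.90 and -1.06. Of its 54 genes 0 differed in response between AD and Null and 1, Hist3h2a, between AD and Het (-0.90, adjusted p 0.0439). Eno2, a glycolytic enzyme and the only called member of the glycolysis list, went from 6.72, 7.70 and 7.61 CPM to 10.9, 11.2, 11.0 and 10.4 CPM in AD (0.56 ± 0.13, adjusted p 0.0436). Its estimates were 0.02 ± 0.15 in Null and 0.19 ± 0.13 in Het thymus, neither difference from AD was called, and the AD call was lost without any 1 of the 7 libraries. That call was also lost without the expression filter and with Adipoq as a covariate.

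**Figure D5:**
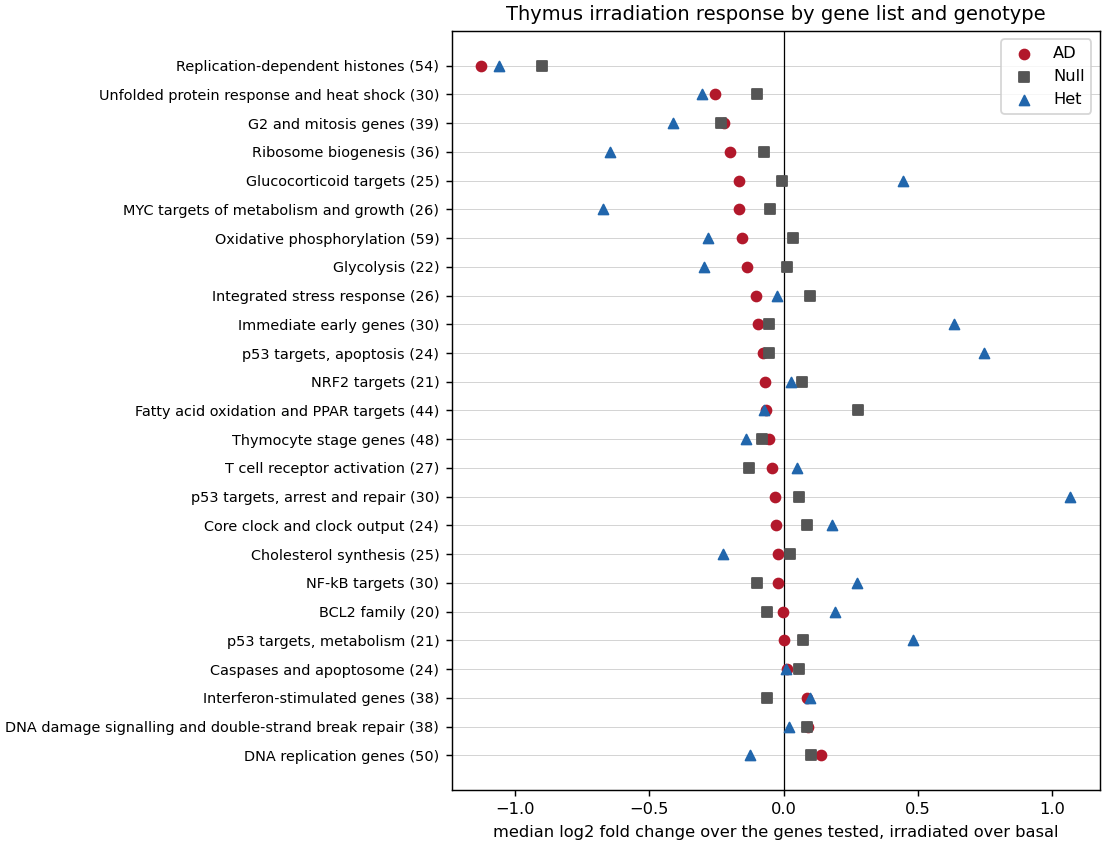
Median log2 fold change (irradiated over basal thymus) of each pathway list in AD (red circles), Null (grey squares) and Het (blue triangles) mice, with the number of genes tested in brackets. Histone medians lie at -1.12, -0.90 and -1.06, and the p53 arrest and repair median lies at -0.03, 0.06 and 1.07.

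Other listed pathways held few called genes in AD thymus. Of 30 genes of the unfolded protein response and heat shock only Pdia6, a disulfide isomerase of the endoplasmic reticulum, fell, from 164, 169 and 158 CPM to 124, 127, 122 and 135 CPM (-0.37 ± 0.08, edgeR adjusted p 0.023), a call lost without any library but AD-727 and with the snRNA covariate. In that list 29 of 30 had estimates below 0, 18 did not overlap in the lower direction (6.97% over all genes), and the median was -0.26. They included the endoplasmic chaperone Hspa5, at 390, 399 and 369 CPM in basal and 277, 285, 284 and 315 CPM in irradiated libraries (adjusted p 0.144). Ribosome biogenesis genes had 35 of 36 estimates below 0 and a median of -0.20 with 0 called, and oxidative phosphorylation genes had 56 of 59 below 0 and a median of -0.15 with 0 called. Libraries did not overlap in the lower direction for 19 of the 36 and 7 of the 59, beside 6.97% over all genes. At an unadjusted p under 0.05, passed by 12.2% of all genes, these 2 lists held 10 and 19 genes. No member was called in the lists of immediate early genes (median -0.09), NF-kB targets (-0.02), interferon-stimulated genes (0.09), glucocorticoid targets (-0.17), core clock genes (-0.03), the integrated stress response (-0.10), NRF2 targets (-0.07), MYC targets (-0.17), fatty acid oxidation (-0.07), cholesterol synthesis (-0.02), the BCL2 family (0.00) or caspases (0.01). Of 48 thymocyte stage genes 0 were called by edgeR, with 4 at an unadjusted p under 0.05, and of 27 T cell activation genes 0 and 4. With genes split into 5 groups by length, the median log2 fold change ran from -0.08 in the shortest to 0.03 in the longest in AD thymus, from -0.05 to 0.07 in Het and from -0.001 to 0.035 in Null.

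Markers of other cells that a dissected thymus can hold were not called in AD thymus, though some moved with single libraries. In bulk tissue, fewer cells of a type and less RNA per cell cannot be told apart. The 15 adipocyte markers had a median of -0.55, with 3 whose libraries did not overlap, and their summed level was 821 to 1040 CPM in basal and 468 to 937 CPM in irradiated libraries. With Adipoq as a covariate the AD response had 128 calls and 46 of the listed histones. The 12 skeletal muscle markers had a median of -0.60, the 16 B and plasma cell markers -0.39, the 15 fibroblast markers -0.34, the 16 macrophage markers -0.23 and the 14 markers of cortical thymic epithelium -0.19. In the muscle, B cell, fibroblast, macrophage and cortical lists the numbers of markers that did not overlap in the lower direction were 2, 5, 3, 4 and 7, beside 6.97% over all genes. Of 9 erythroid markers 0 were called, all had estimates above 0 with a median of 0.47, and their summed level was 513 to 693 CPM in basal and 274 to 1699 CPM in irradiated libraries, of which AD-630 and AD-633 were the lowest and AD-727 the highest. Hepatocyte markers had a median of 3.18 from 1 library: their sum was 353 CPM in AD-727 against 15.5 to 19.7 CPM in the other irradiated and 29.2 to 38.9 CPM in the basal libraries. Albumin (Alb) was 177 CPM in AD-727 and at most 3.80 CPM in the other 6. Without AD-727 the AD response had 116 calls, 48 of them listed histones. The part of the other markers in the results was not tested.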

How the data were processed

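The authors deposited whole-number counts per gene and library, in 42 columns of 49585 genes, all of which were matched to samples (0 were left unmatched). For 8 basal thymus columns the name held no tissue, and each was matched as the only sample left for that animal. The submitters' processing notes name STAR 2.6.0b, the build GRCm38 and DESeq2. How reads were counted, on which annotation and with which strand setting, is not given in the sources used here. Symbols and positions came from GENCODE M21 by unversioned identifier (49326 matched, 259 did not).

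All 24 thymus libraries (7 groups) were fitted together in R 4.3.3 with edgeR 4.0.16: filterByExpr (23605 genes kept), TMM scaling and robust quasi-likelihood F tests (biological coefficient of variation 0.145), with Benjamini-Hochberg adjustment over all genes tested. A standard error is the absolute log2 fold change divided by the root of F. CPM is TMM-scaled and log2 CPM used a prior count of 2. limma 3.58.1 (voom) and DESeq2 1.42.0 were alternatives. The procedure was tested on simulated data. Library pairs within the AD groups had a chi-square per degree of freedom of 7.47 to 17.2 (9 pairs), so none was a copy.

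Named genes were a fixed p53 panel, the 15 largest called changes each way (mean level not under 1 log2 CPM, libraries not overlapping, no provisional symbol), up to 6 members of a list and up to 10 each way for a difference between genotypes. Others are said to be chosen after their values were seen, and part of the genes the rule picks are left out. The comparison, lists and panel were chosen with earlier results of these data known.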

Additional observations from a re-analysis of the deposited data

Results flagged for a closer look

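In irradiated AD thymus, 76 values (named genes and summed lists) were searched for a library that stood far from the other 3, by Dixon's ratio at its 95% critical value. Chance gives about 1 in 20 such values. The library AD-630 stood low for Bbc3, at 1.84 log2 CPM against 2.73 to 2.83 in the others, and high for Fas, at 5.83 log2 CPM against 5.63 to 5.66. Summed hepatocyte transcripts stood at 352.9 CPM in AD-727 against 15.5 to 19.7 CPM in the others.

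For 35 named genes the irradiation response differed between AD and Het thymus by the interaction test in edgeR. Up to 10 of these genes each way were named for being the largest calls of this same test. Their calls were thus fixed by the choice, and the p53 panel was chosen with earlier results of these data known. Over all 23605 genes 246 (1.04%) had a higher and 694 (2.94%) a lower response in AD. Differences are given as AD minus Het on the log2 scale. Among p53 targets of arrest and repair these were Cdkn1a -2.83, Mdm2 -0.77, Ccng1 -2.68, Phlda3 -3.02, Plk2 -4.43 and Gdf15 -5.11. Among death genes they were Bax -2.58, Bbc3 -3.83, Pmaip1 -2.91, Fas -1.08, Eda2r -3.75, Apaf1 -1.90, Bcl2l11 -0.67, Perp -0.77 and Pdrg1 -0.41 (adjusted p 0.0453). The immediate early genes Atf3, Ccn1 and Fos differed by -4.51, -4.49 and -3.29, and Thbs1, which encodes a matrix protein, by -3.81. The mitochondrial gene Dglucy (-4.001), Zfp365 (-3.39), the testis form of a respiratory subunit Cox6b2 (-3.30), Inka2 (-3.14) and the pseudogene H2-T-ps (-3.02) were lower as well. Differences in the other direction were found for the growth regulator Myc (1.05), the transaminase Bcat1 (1.92), the nucleotide enzymes Dctd (1.83) and Shmt1 (0.93), the uracil glycosylase Ung (1.08), the adhesion gene Chl1 (1.38), the RNA methyltransferase Mettl1 (1.148), the nucleolar Dkc1 (0.95, adjusted p 0.0437), Cdca7 (0.95), the import receptor Kpna2 (0.73) and Atcay (0.95, adjusted p 0.0481). Dkc1 lost its call when any 1 of the 14 libraries was left out. Atcay lost it without AD-700, AD-701, AD-630, AD-726, AD-727, Het-697, Het-703, Het-594, Het-603 or Het-631, Mettl1 without AD-700, AD-727, Het-703 or Het-595, and Chl1 without AD-700. Dkc1 also lost its call without the expression filter and with the snRNA covariate, and Atcay with RLE scaling or without the filter. With only the groups compared, Atcay and Chl1 lost theirs.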

How the results depend on the processing

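Over 15 alternatives for the AD response (RLE scaling, no filter, DESeq2, limma-voom, only the groups compared, a sex term from Xist, an Adipoq covariate, a summed snRNA covariate chosen after seeing the data, and each library left out), no named gene reversed, and over all comparisons 204 of 1820 gene values lost and 4 gained a call. The 1820 values include many of genes without a call in the main fit, among them every AD minus Null value, and these could not lose one. The share lost among called genes was therefore larger. The AD response had 129 calls (39 higher, 90 lower). DESeq2 called 319 (159 higher, 160 lower, 126 shared with the 129), and only the 2 AD groups gave 361 (189 and 172, 97 shared). No filter gave 25 higher and the snRNA covariate 17 higher. Leaving out 1 library gave 67 to 116 calls, 2 to 32 higher and 56 to 84 lower. Listed histones called lower were 47, 28 with only the 2 groups, and 38 to 48 with 1 library left out, and their median stayed between -1.23 and -0.97. G2 and mitosis genes called lower were 4, 2 without the filter, 7 by DESeq2, 10 with only the 2 groups and 0 to 3 with 1 library left out. For AD minus Null there were 0 calls, 2 by DESeq2 (1 higher, 1 lower), 1 (lower) with only the groups compared, and 0 to 2 with 1 library left out (0 higher, 0 to 2 lower). For AD minus Het there were 940 calls, 611 to 1584 with 1 library left out. Higher ones were 246, 427 by DESeq2, 374 with the snRNA covariate and 118 to 569 with 1 library left out, and lower ones 694 and 493 to 1015. The cause was not tested. No paired analysis was possible because irradiated and basal mice were different animals with different numbers. Depth limits genes under 1 CPM.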
